A study of Mus musculus with 28 samples.

Results

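Arc amacrine cells of the mouse retina were compared after and before eye opening. The comparison set 7 arrays of postnatal days P14 to P20 against 7 arrays of P7 to P13, 1 array for each day, chosen by the age in the sample labels. These are 14 of the 28 arrays of the series. The rest are 7 Arc arrays of P1 to P6, 1 Arc array of P43, and 3 arrays each of starburst amacrine cells at P18 and P3.

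The cells of both windows came from Tg(Arc-EGFP)194Gsat/Mmcd mice, in which an Arc transgene drives EGFP. FVB/N-Swiss Webster hybrids of this line had been crossed to C57BL/6J, and mixed F2 animals were used. The founder hybrids can carry a recessive allele of photoreceptor degeneration. A total of 200 GFP-positive cells was sorted from 1 retina for a sample, without any other treatment. Every one of the 14 arrays has the batch label "A and B", so no value within a batch could be given. Whether the EGFP of the transgene marks the same cells on every day was not tested.

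Amacrine cells are the inhibitory interneurons of the inner retina. They release GABA or glycine onto bipolar, ganglion and other amacrine cells. In mice their synapses form during the first weeks after birth, while spontaneous retinal waves give way to responses driven by light. Eye opening, at the start of the later window, admits patterned images for the first time.

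Because no day has a second Arc array, the days of a window stood in for replicates. The spread within a window therefore holds the change with age inside it, and p-values measure the spread between days and not between animals of an age. Values are log2 expression from arrays, so a difference of 1 is a 2-fold change. As a mark of background, 708 olfactory receptor genes had a 95th percentile of 3.53 in P14 to P20 and 3.66 in P7 to P13. Array medians lay between 3.39 and 3.47 in P14 to P20 and between 3.46 and 3.52 in P7 to P13. Arrays of a window correlated across genes with r between 0.977 and 0.985 in P14 to P20 and between 0.968 and 0.984 in P7 to P13. Changes in bulk RNA of sorted cells cannot tell fewer cells of a type from less RNA per cell.

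The label of the cells was checked first. Of 14 measured pan-amacrine markers, Gad1, the GABA-synthesizing enzyme, was the 1 gene that passed the test, against 6.71% of all genes. At an unadjusted p under 0.05 (limma) 2 of the 14 were higher and 4 lower. Quantile normalization gave 4 lower genes past the test and a list median of -0.293, against -0.178 on the values as deposited. Tfap2b, a transcription factor of amacrine cells, averaged 9.28 in P14 to P20 and 9.48 in P7 to P13. Pax6, a transcription factor of retinal neurons, averaged 8.83 in P14 to P20 and 9.04 in P7 to P13. The mean level of the pan-amacrine markers lay between 6.88 and 7.06 in P14 to P20 arrays and between 6.96 and 7.08 in P7 to P13 arrays. Defining starburst genes were near background, with Chat, which makes acetylcholine, at 2.77 in P14 to P20 and 2.85 in P7 to P13. By limma 0 of 9 measured starburst markers passed the test, with 1 at an unadjusted p under 0.05. Arc, the immediate early gene of the transgene, had a lowest, median and highest value of 5.64, 5.78 and 5.96 in P14 to P20, against 5.50, 5.71 and 6.05 in P7 to P13. The difference of 0.05 ± 0.11 (SE, 7 arrays each) did not pass the test (limma, adjusted p = 0.79).

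Between the windows 914 of 13617 genes passed the test, 6.71% of those tested (limma, Benjamini-Hochberg adjusted p under 0.05). Of these, 642 were higher in P14 to P20, or 4.71% of all genes, and 272 were lower, or 2.00%. A change of at least 2-fold was seen for 79 of the higher and 14 of the lower genes. The median change over all genes was -0.06. For 192 genes, or 1.41%, all 7 arrays of P14 to P20 lay above all 7 of P7 to P13, and for 98, or 0.720%, they lay below. Among the genes past the test, 171 of the 642 and 61 of the 272 were free of overlap. Median centring of each array gave 858 higher and 122 lower genes, so the share of lower calls depended on the scaling.

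Glul, glutamine synthetase, is in the retina best known from Muller glia, where it recycles glutamate. Its transcript cluster 6754149 stood at 5.64, 5.0, 5.29, 5.91, 6.38, 6.12 and 6.02 on the days P14 to P20, against 3.24, 4.87, 3.15, 4.26, 5.0, 4.21 and 4.55 on the days P7 to P13. All later arrays lay above all earlier ones, although P15 and P11 nearly met. Glul rose by 1.58 ± 0.28 (SE, 7 arrays each), a 3.0-fold change (limma, adjusted p = 0.00148). At P43 it stood at 4.92, below each array of P14 to P20.

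Thy1, a surface glycoprotein used as a marker of retinal ganglion cells, stood at 6.19, 5.97, 6.42, 6.68, 7.0, 6.58 and 6.52 on the days P14 to P20. On the days P7 to P13 it stood at 3.48, 3.86, 4.17, 5.51, 5.44, 5.83 and 5.90. The windows did not overlap, and the P7 to P13 arrays ran from background at P7 to just under the lowest later array at P13. Thy1 rose by 1.59 ± 0.30 (SE, 7 arrays each), a 3.02-fold change (limma, adjusted p = 0.00261). Its value of 6.52 at P43 lay within the range of P14 to P20.

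Aldoc, a glycolytic aldolase, had the highest change of the genes named by rule, which takes the 12 highest and the 12 lowest changes past the test among genes above the median level. Its lowest, median and highest values were 7.51, 8.80 and 8.96 in P14 to P20, against 4.28, 6.22 and 7.70 in P7 to P13. Aldoc rose by 2.51 ± 0.43 (SE, 7 arrays each; limma, adjusted p = 0.00111), and the P13 array was the 1 that reached into the later range. Mgarp, a mitochondrial protein, had a median of 7.25 in P14 to P20, against 5.41 in P7 to P13, with no overlap. Faim2, an inhibitor of Fas-mediated cell death in neurons, had a median of 7.97 in P14 to P20, against 6.06 in P7 to P13, also with no overlap.

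Secreted and signalling proteins made up much of the rest of the 12 genes. Olfm3, a secreted olfactomedin, rose by 1.74, Sparcl1, a matricellular protein that promotes synapse formation, by 1.65, and Vstm2a, a secreted immunoglobulin-domain protein, by 1.54. Rasgrp1, an exchange factor that activates Ras, rose by 1.66, Tshr, the thyrotropin receptor, by 1.54, and Slc24a2, a sodium, calcium and potassium exchanger, by 1.48. Gnat1, the transducin subunit of rods, rose by 2.03 and is described with the rod markers. The later window lay wholly above the earlier one for 7 of the 12, against 171 of the 642 higher genes and 1.41% of all genes. The 12 were chosen by the same difference, which favours such a separation.

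Genes of young neurons led the falls. Dcx, doublecortin, which stabilizes microtubules in migrating neurons, had a lowest, median and highest value of 2.57, 2.77 and 4.09 in P14 to P20, against 3.90, 5.25 and 7.31 in P7 to P13. Dcx fell by 2.45 ± 0.40 on the log2 scale (SE, 7 arrays each; limma, adjusted p = 0.000705). Since its later mean of 3.16 lies under the background mark of 3.53, this size is a lower bound. From P17 on its arrays lay between 2.57 and 2.77, near the P43 value of 2.74.

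Dpysl3, a growth cone protein that couples guidance signals to the cytoskeleton, had a lowest, median and highest value of 4.45, 4.91 and 6.10 in P14 to P20, against 5.90, 7.19 and 7.47 in P7 to P13. Stmn2, a stathmin that controls microtubule growth in young neurites, had values of 3.79, 4.61 and 5.05 in P14 to P20, against 5.25, 6.29 and 6.61 in P7 to P13, with no overlap. The falls were 1.80 for Dpysl3 and 1.73 for Stmn2, both at a limma adjusted p = 0.000315. Tubb2b, a tubulin of young neurons, fell by 1.32, also with no overlap.

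**Figure D1:**
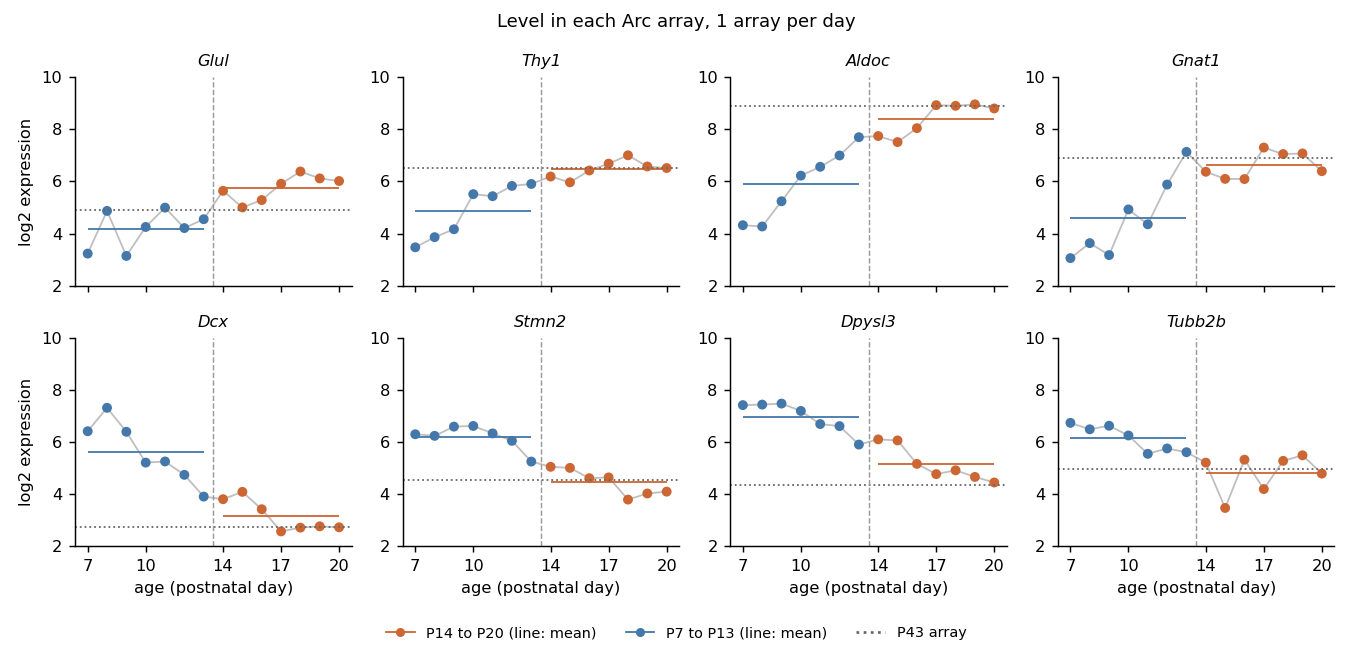
Log2 expression (vertical axis) of 4 genes that rose and 4 that fell, by postnatal day (horizontal axis), with 1 point for each Arc array and a line at the mean of each window. Orange points are P14 to P20, blue points P7 to P13, the dashed line marks the boundary of the windows and the dotted line the single P43 array; most of the climb of Thy1, Aldoc and Gnat1 lies before the boundary.

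The other genes among the 12 lowest differ in function. Tac1, the gene of the substance P precursor, fell by 1.68, with a median of 3.94 in P14 to P20 and 5.29 in P7 to P13, and stood at 5.89 at P43. Crabp1, which binds retinoic acid in the cytosol, fell by 1.62, Sox4, a transcription factor of immature neurons, by 1.30, and Rnd3, a small GTPase that acts on the actin cytoskeleton, by 1.25. Nt5dc2, a nucleotidase-domain protein, fell by 1.13 and Nyap2, an adaptor of phosphoinositide kinase signalling, by 1.12. Qk, an RNA-binding protein, fell by 1.17 and Cnn3, an actin-binding calponin, by 1.15. Of the 24 genes of both directions, 22 kept the call without each single array. Qk lost it without any 1 of P7 to P9 and P17 to P20, with an adjusted p of up to 0.0753, and Cnn3 without any 1 of P7 to P10 and P17 to P20, with an adjusted p of up to 0.0871 (limma).

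The position of the change relative to eye opening was examined next. A step between P13 and P14, fitted beside a linear slope over the 14 days, called 0 genes by limma (0.00%), with 632 at an unadjusted p under 0.05 and a smallest adjusted p of 0.981. The median SE of that step was 0.173. The days next to the boundary, P14 to P16 against P11 to P13, called 0 genes by limma (0.00%), with 1059 unadjusted and a smallest adjusted p of 0.508. The change between these windows was also set against the change between P7 to P13 and P1 to P6, with the P7 to P13 arrays in both. Their difference called 0 genes by limma (0.00%), with 136 unadjusted.

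For each of the 24 named genes the 95% interval of the step held 0. The step of Glul was 0.47, with an interval between -0.60 and 1.53, and that of Slc24a2 was 0.00, between -0.41 and 0.41. The step of Stmn2 was -0.56, between -1.22 and 0.11, and that of Tubb2b was -0.92, between -2.19 and 0.34. The step had the sign of the change for 2 of the 12 highest and 4 of the 12 lowest genes. Over all genes past the test the step had that sign for 405 of the 642 higher and 182 of the 272 lower genes. The interval of Tubb2b also held its whole change of -1.32, so a step of that size could not be told from none.

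**Figure D2:**
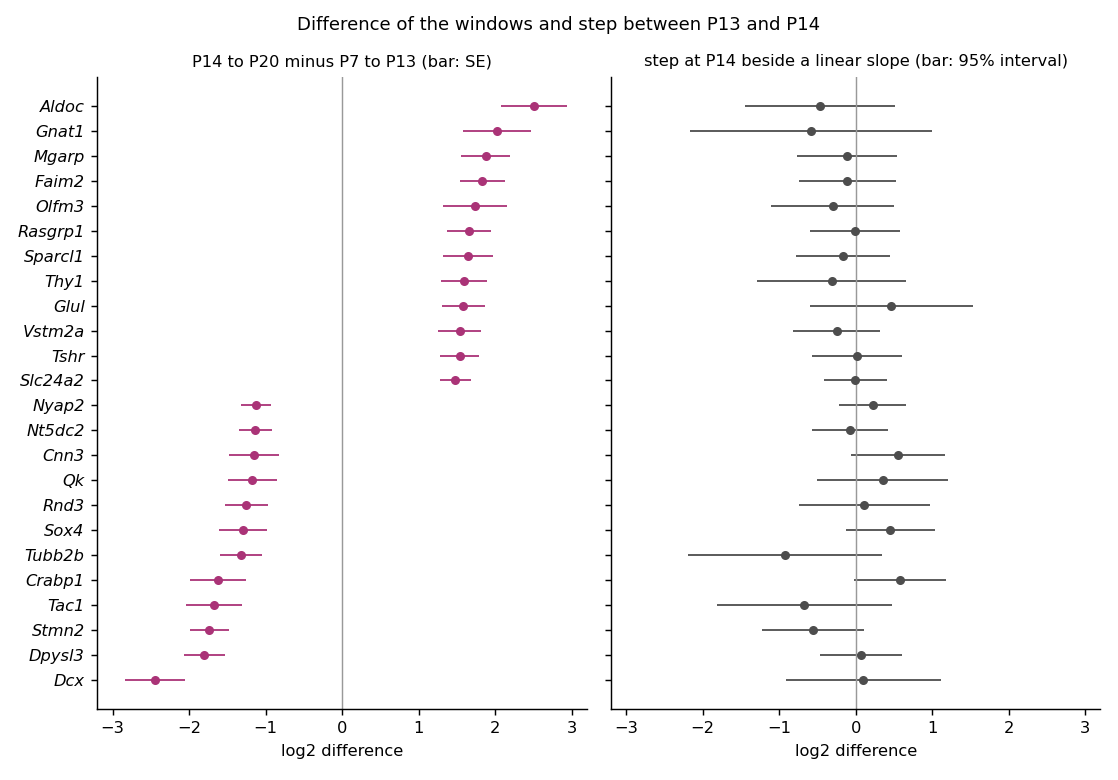
Log2 difference (horizontal axis) for the 24 named genes (rows), with the change between the windows and its SE on the left and the step at P14 beside a linear slope with its 95% interval on the right. The left points lie away from 0 by 1.12 or more, while every interval on the right crosses 0.

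Slopes were then read inside each window. Aldoc gained 0.25 per day inside P14 to P20 and 0.60 per day inside P7 to P13, and Thy1 gained 0.10 per day inside P14 to P20 and 0.45 per day inside P7 to P13. The slope was steeper inside P7 to P13 for each of the 12 highest genes and for 4 of the 12 lowest. These genes were chosen by the difference between the windows, and the share over all genes was not counted. Crabp1 changed by -0.36 per day inside P14 to P20 and by -0.27 per day inside P7 to P13, and Sox4 by -0.30 and -0.20 per day in these windows. The slopes were not compared by a test.

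Neighbouring days were set side by side over all 13617 genes. The root mean square difference between P13 and P14 was 0.259, the smallest of the 13 pairs of neighbouring days, and the largest was 0.304 between P7 and P8. For the 642 higher genes the median rise between P13 and P14 was 0.147, after 0.192 between P11 and P12 and 0.183 between P9 and P10. For the 272 lower genes the median difference between P13 and P14 was -0.143, the largest fall of the 13 pairs. Both sets were chosen by the difference between the windows, in which the P13 to P14 difference weighs most. Their values at that pair are thus favoured by the choice and cannot place the change at eye opening. A total of 58 of the 642 genes, or 9.03%, had their largest rise between P13 and P14, against 97 between P9 and P10, 93 between P11 and P12 and 82 between P16 and P17. Of the lower genes 32 of 272, or 11.8%, had their largest fall there.

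**Figure D3:**
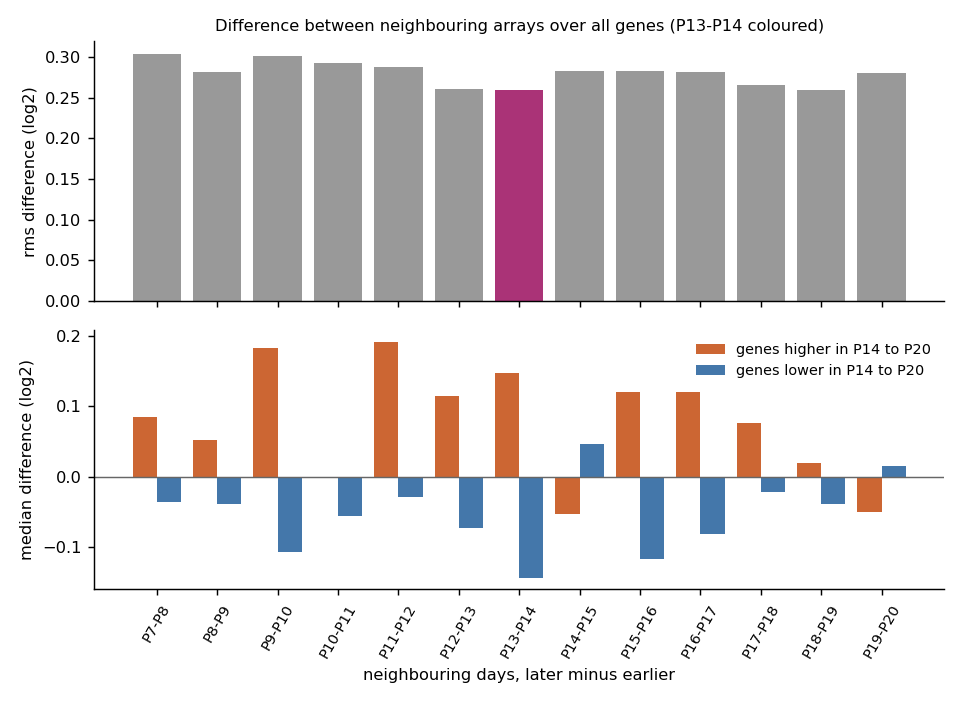
Upper panel, root mean square log2 difference over all genes between neighbouring days (bars, 13 pairs), with P13 to P14 coloured; lower panel, median log2 difference, later minus earlier day, of the 642 higher (orange) and 272 lower genes (blue). The coloured bar is the shortest at 0.259, and the orange bars are tallest at P9 to P10 and P11 to P12. The genes of the lower panel were chosen by the difference between the windows, which favours a change at P13 to P14.

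The count of genes depended on the days included. With the later window limited to P14 to P16, 0 genes passed by limma, with 1544 at an unadjusted p under 0.05, and with it limited to P17 to P20, 897 passed. With P7 and P8 left out 255 passed, and with P14 to P16 set against P10 to P13, 0 passed by limma, with 852 unadjusted. Because 0 genes passed where P14 to P16 stood alone, each of the 24 named genes necessarily lost its call there, without a change of sign. Gnat1, Olfm3, Crabp1, Sox4, Rnd3, Qk and Cnn3 also lost it without P7 and P8. Leaving out P7 alone gave 580 genes and leaving out P8 alone gave 605. These choices of days were made after the values were seen, apart from the leaving out of single arrays.

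Of 32 measured genes of synaptic vesicles and release, 14 rose and 0 fell, against 4.71% and 2.00% of all genes, and the median change of the list was 0.415. At an unadjusted p under 0.05 (limma) 20 of the 32 were higher and 3 lower. Snap25, a core SNARE protein, had a lowest, median and highest value of 9.63, 10.27 and 10.39 in P14 to P20, against 8.62, 9.20 and 9.66 in P7 to P13. It rose by 0.95 ± 0.22 (SE, 7 arrays each; limma, adjusted p = 0.0106), with an overlap at P13 and P15. Synpr, a synaptic vesicle protein, rose by 1.40, Syn2, a synapsin that tethers vesicles, by 1.14, Dnm1, the dynamin that retrieves them, by 1.13, and Nsf, the ATPase that separates SNARE complexes, by 1.08. Syn2, Dnm1 and Syp, synaptophysin, had no overlap between the windows. Amph lost its call without P9 (adjusted p = 0.054), and Syn3, Unc13a and Napb lost theirs without single arrays among P7 to P9 or P17 to P20, with an adjusted p of up to 0.0814. The other 10 kept theirs without each array.

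Genes that make, pack and take up GABA and glycine were read next. Gad1 had a lowest, median and highest value of 8.83, 9.53 and 9.66 in P14 to P20, against 7.80, 8.38 and 8.90 in P7 to P13. It rose by 0.94 ± 0.25 (SE, 7 arrays each; limma, adjusted p = 0.0222), and lost the call without any 1 of P7, P18, P19 and P20, with an adjusted p of up to 0.0599. Slc6a5, the glycine transporter of glycinergic neurons, averaged 6.06 in P14 to P20 and 4.93 in P7 to P13, and rose by 1.12. These were the 2 of 9 genes of GABA and glycine synthesis, packaging and uptake that passed, against 6.71% of all genes. Gad2, the other GABA-synthesizing enzyme, averaged 6.52 in P14 to P20 and 6.39 in P7 to P13, and did not pass.

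Of 16 GABA and glycine receptor genes 2 passed, against 6.71% of all genes. Gabrb2, a GABA-A receptor subunit, rose by 0.96 and Glrb, the glycine receptor beta subunit, by 0.98. Gabrb2 lost its call without P8 (adjusted p = 0.0512). Of 21 glutamate receptor genes 2 rose and 1 fell, against 4.71% and 2.00% of all genes. Grin2a, an NMDA receptor subunit whose expression increases as many brain neurons mature, stood at a lowest, median and highest value of 5.09, 5.82 and 5.92 in P14 to P20, against 4.30, 4.54 and 4.99 in P7 to P13. It rose by 1.06 ± 0.17 (SE, 7 arrays each; limma, adjusted p = 0.000663), with no overlap. Neto2, an auxiliary subunit of kainate receptors, rose by 0.77, and its relative Neto1 fell by 0.36, with both means under the background mark. Neto2 lost its call without any 1 of P7, P8 and P19, and Neto1 without any 1 of 6 arrays, with an adjusted p of up to 0.0854, and under median centring. Of 13 postsynaptic scaffold and kinase genes 4 rose and 0 fell, against 4.71% and 2.00% of all genes. The largest change was that of Dlgap1, a scaffold protein, at 0.94. Camk2a, another of the 4, averaged under the median level of all genes over the 14 arrays.

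Ion channels and pumps set the excitability of a neuron. Of 24 potassium channel genes 8 rose and 0 fell, against 4.71% and 2.00% of all genes. The list median was 0.142, and the other genes did not pass. Kcnc1, a fast delayed rectifier, averaged 5.39 in P14 to P20 and 4.58 in P7 to P13, and Kcnab2, an auxiliary subunit, 6.46 in P14 to P20 and 5.64 in P7 to P13. Kcna6, Kcnd2 and Kcnab1 lost their calls without single arrays in both windows, with an adjusted p of up to 0.121. Of 19 sodium, calcium and HCN channel genes 6 rose and 0 fell, against the same shares of all genes. Scn2b, a sodium channel auxiliary subunit, rose by 0.70, and Cacnb2, a calcium channel auxiliary subunit, by 0.69. Cacna1a, the pore of P/Q-type calcium channels, rose by 0.57. Cacnb2 lost its call without any 1 of 8 arrays, with an adjusted p of up to 0.0703, and Scn1a without P7, P18 or P19. Scn1a averaged under the median level of all genes over the 14 arrays.

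Of 15 genes of ion pumps and chloride transport 7 rose and 0 fell, against 4.71% and 2.00% of all genes, with a list median of 0.413. Slc12a5, the potassium and chloride cotransporter that makes GABA inhibitory in mature neurons, averaged 7.46 ± 0.33 in P14 to P20 and 6.64 ± 0.47 in P7 to P13 (SD, n = 7 each). It rose by 0.81 (limma, adjusted p = 0.0151). Slc24a2 stood at 5.35, 5.98 and 6.32 as its lowest, median and highest value in P14 to P20, against 3.73, 4.71 and 5.25 in P7 to P13. It rose by 1.48 ± 0.20 (SE, 7 arrays each; limma, adjusted p = 0.000209), with no overlap. Of 12 calcium buffer and sensor genes 2 rose and 1 fell, against the same shares of all genes. Sparcl1 and Hpcal4, a neuronal calcium sensor, rose by 1.65 and 0.66, and Ncs1, a related sensor, fell by 0.43. Ncs1 lost its call under median centring and without any 1 of 12 arrays, with an adjusted p of up to 0.0952. Plasma membrane calcium pump genes Atp2b2, Atp2b3 and Atp2b4 rose by 0.74, 0.41 and 1.06. Atp2b4 lost its call without any 1 of 8 arrays, with an adjusted p of up to 0.0826, and Atp2b3 without P7 or P19, with an adjusted p of up to 0.0556.

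Of 16 measured genes of glycolysis 5 rose, Aldoc among them, and 0 fell, against 4.71% and 2.00% of all genes. The list median was 0.384. At an unadjusted p under 0.05 (limma) 9 were higher and 1 lower. Eno2, the neuronal enolase, had a median of 6.95 in P14 to P20 and 5.46 in P7 to P13 and rose by 1.34. Aldoa, another aldolase, averaged 9.69 in P14 to P20 and 8.75 in P7 to P13, with no overlap. Pfkm and Pfkl, subunits of phosphofructokinase, rose by 0.69 and 0.40. Pfkl lost its call without any 1 of 7 arrays, with an adjusted p of up to 0.0776. Of 19 genes of the citric acid cycle and the malate-aspartate shuttle 4 rose and 0 fell, against the same shares of all genes. Got1, a cytosolic aminotransferase of the shuttle, had the largest change of these, 1.27. Another 2 of the 4, Idh3b and Slc25a12, lost their calls without single arrays in both windows, with an adjusted p of up to 0.0827. Of 24 oxidative phosphorylation genes Sdha, a subunit of succinate dehydrogenase, was the 1 that passed, with a rise of 0.61. This count is not above the 6.71% of all genes.

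Of 21 measured genes of growth cones, microtubules and neurite outgrowth, 8 fell and 0 rose, against 2.00% and 4.71% of all genes, with a list median of -0.345 against -0.06 over all genes. The others did not pass. Beside Dcx, Dpysl3, Stmn2 and Tubb2b, Fscn1, an actin-bundling protein, fell by 0.94, and Dpysl5 and Crmp1, relatives of Dpysl3, by 0.92 and 0.57. Vim, an intermediate filament of immature cells and of Muller glia, averaged 3.11 in P14 to P20 and 3.58 in P7 to P13, both under the background mark. It lost its call under median centring and without any 1 of 8 arrays, with an adjusted p of up to 0.0903. Gap43, a membrane protein of growth cones, averaged 5.97 in P14 to P20 and 6.66 in P7 to P13, and did not pass (limma, adjusted p = 0.0829). Map2, a microtubule protein of dendrites, averaged 7.89 in P14 to P20 and 7.87 in P7 to P13.

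Of 35 axon guidance genes 5 fell and 2 rose, against 2.00% and 4.71% of all genes, with a list median of -0.116. Plxnc1 and Plxna1, receptors for semaphorins, fell by 0.70 and 0.51. After median centring 2 of the list fell, in the fit of the 14 arrays alone 9 fell and 3 rose, and 6 of the 7 calls were lost without some single array, with an adjusted p of up to 0.121. Of 30 adhesion genes 3 rose and 1 fell, against 4.71% and 2.00% of all genes. Cdh2, N-cadherin, averaged 5.39 in P14 to P20 and 6.30 in P7 to P13 and fell by 0.91. Cntn4 and Cntnap1, contactin-related proteins among those that rose, lost their calls without single arrays in both windows, with an adjusted p of up to 0.103. Of 31 transcription factors of immature neurons and Notch genes 0 rose and 2, Sox4 and Dll1, fell, against the same shares of all genes. In the fit of the 14 arrays alone 8 of the 31 fell and 0 rose, and at an unadjusted p under 0.05 (limma) 10 were lower and 0 higher. Of 23 cell cycle genes 0 rose and 1 fell, against the same shares of all genes. Mcm2, a replication helicase subunit, fell by 0.26, with both means under the background mark. In the 14 arrays alone 4 cell cycle genes fell and 1 rose. Dll1 and Mcm2 lost their calls under median centring and without single arrays of both windows, with an adjusted p of up to 0.0934. Dll1 averaged under the median level of all genes over the 14 arrays.

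Genes regulated by neuronal activity were read because eye opening admits patterned light. Of 29 measured genes 5 rose and 0 fell, against 4.71% and 2.00% of all genes, with a list median of -0.03. Nptx2 and Nptx1, pentraxins that gather AMPA receptors at synapses, rose by 1.03 and 0.98. Nptx1 had a lowest, median and highest value of 6.29, 6.50 and 7.16 in P14 to P20, against 5.36, 5.61 and 6.05 in P7 to P13, with no overlap (limma, adjusted p = 0.000873). Npas4, an activity-dependent transcription factor, stood at 3.90, 3.75, 4.54, 3.87, 4.47, 4.52 and 4.47 on the days P14 to P20, against 3.42 to 3.86 in P7 to P13. It rose by 0.51, with the P14, P15 and P17 arrays inside the earlier range or close to it.

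Nr4a1, a nuclear receptor and immediate early gene, rose by 0.48, and Gadd45b, which is induced by activity and stress, by 0.34. Gadd45b averaged under the median level of all genes over the 14 arrays. Other classical immediate early genes of the list, Fos, Egr1 and Junb, did not pass. Fos averaged 3.01 in P14 to P20 and 3.01 in P7 to P13, and Egr1 3.34 in P14 to P20 and 3.61 in P7 to P13, under the background mark. Junb averaged 3.39 in P14 to P20 and 3.42 in P7 to P13. Npas4, Nr4a1 and Gadd45b lost their calls without single arrays, with an adjusted p of up to 0.114, while Nptx1 and Nptx2 kept theirs without each array. The sign of the list's median turned to 0.03 under median centring.

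**Figure D4:**
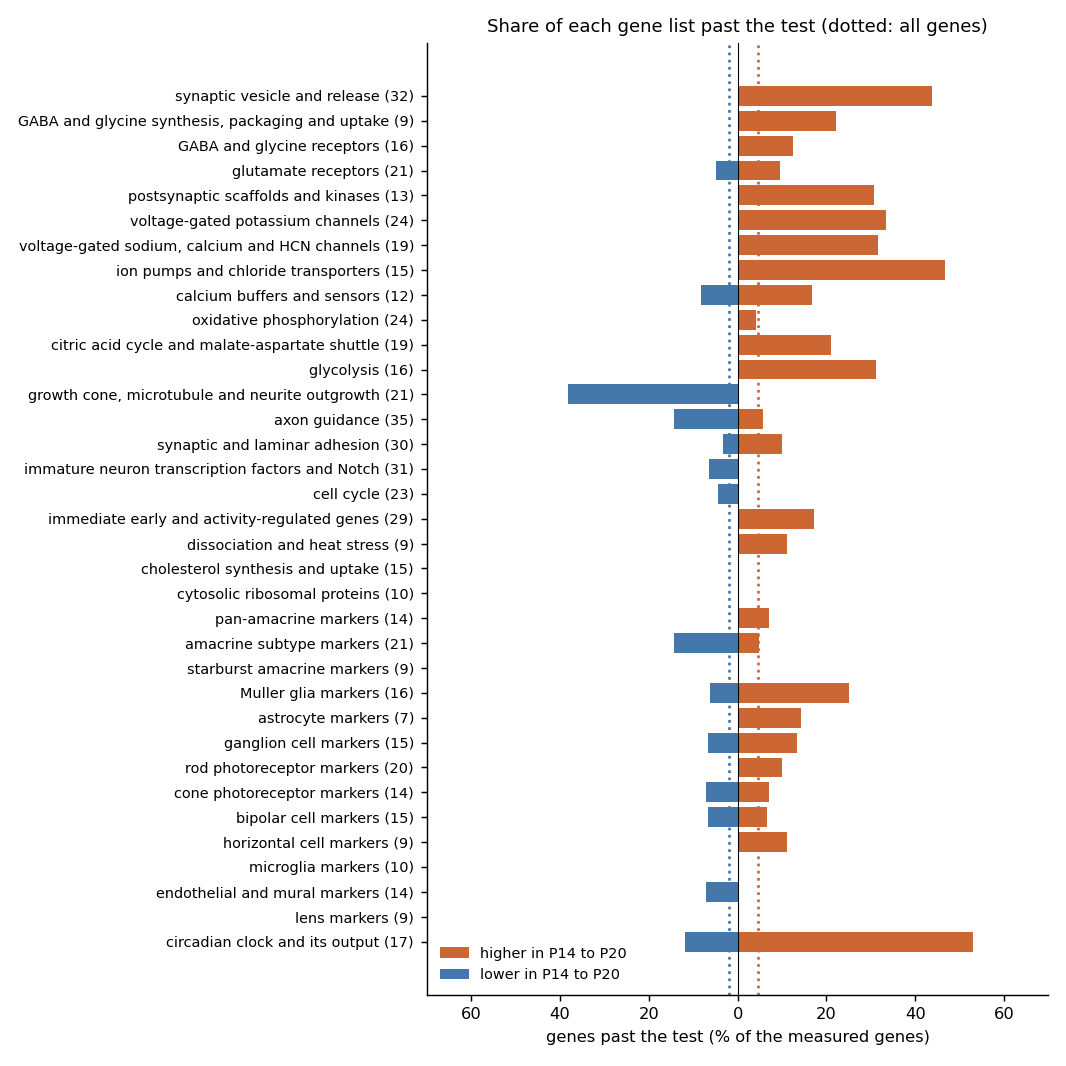
Share of the measured genes of each list that passed the test (horizontal axis, percent), with higher in P14 to P20 to the right in orange and lower to the left in blue; the number of genes measured follows each name, and dotted lines mark 4.71% and 2.00%, the shares over all genes. Vesicle, pump and potassium channel lists stand out to the right, growth cone genes to the left, and the circadian list was chosen after its values were seen.

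Genes of the circadian clock were singled out after their values were seen, so their counts are a description. The clock is a loop in which Clock and Arntl drive transcription through E-boxes, the Per and Cry proteins repress them, and Dbp, Hlf and Tef act on D-boxes that Nfil3 binds as a repressor. Of 17 measured genes 9 rose and 2 fell, against 4.71% and 2.00% of all genes. Per3, a member of the repressor family, shared the smallest adjusted p of all genes. It stood at a lowest, median and highest value of 5.82, 6.13 and 6.45 in P14 to P20, against 3.97, 4.62 and 5.62 in P7 to P13, and rose by 1.44 ± 0.17 (SE, 7 arrays each; limma, adjusted p = 0.000102).

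Dbp stood at 6.40, 6.71 and 6.94 as its lowest, median and highest value in P14 to P20, against 4.59, 5.03 and 6.33 in P7 to P13, and rose by 1.46. Hlf stood at 7.21, 7.35 and 7.48 in P14 to P20, against 5.29, 6.00 and 6.82 in P7 to P13, and rose by 1.39. In Dbp, Hlf, Per3 and Bhlhe41 the later window lay wholly above the earlier one, as it did for 1.41% of all genes. Bhlhe41 and Bhlhe40, which rose as well, averaged under the median level of all genes over the 14 arrays. Hlf gained 0.05 per day inside P14 to P20 and 0.27 per day inside P7 to P13. The step at P14 was 0.28 for Hlf, with a 95% interval between -0.27 and 0.83.

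Tef rose by 0.47, Nr1d2, a nuclear receptor that represses Arntl, by 0.88, Clock by 0.56 and Rora, a nuclear receptor that activates Arntl, by 0.66. Arntl, also called Bmal1, fell by 0.58 ± 0.11 (SE, 7 arrays each; limma, adjusted p = 0.00221), with a median of 5.07 in P14 to P20 and 5.70 in P7 to P13. Nfil3 fell by 0.70, to a mean of 3.93 in P14 to P20 against 4.64 in P7 to P13. Per1 averaged 4.37 in P14 to P20 and 4.23 in P7 to P13, and did not pass. Nfil3 and Bhlhe40 lost their calls without single arrays in both windows, with an adjusted p of up to 0.0808, and Rora without P7 (adjusted p = 0.0509). The hour of collection is not given in the sources used here, and whether it differed between the days was not tested.

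**Figure D5:**
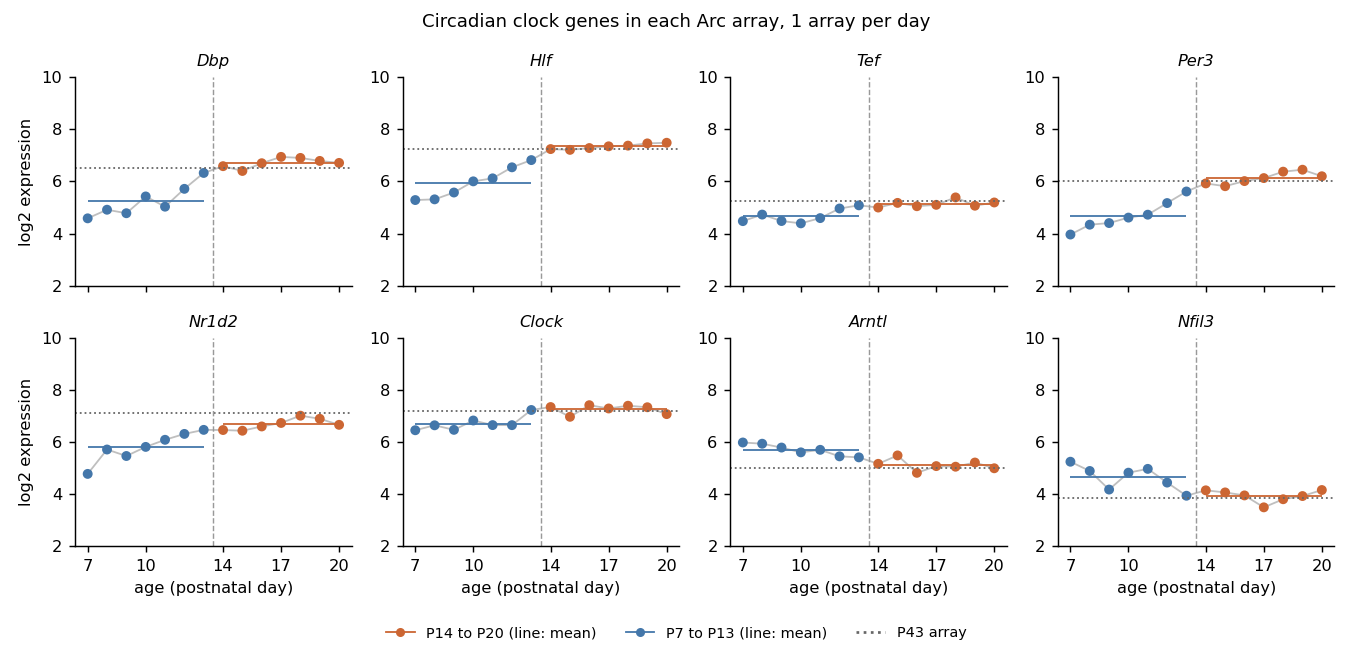
Log2 expression (vertical axis) of 8 circadian genes by postnatal day (horizontal axis), with 1 point for each Arc array, lines at the window means, orange for P14 to P20, blue for P7 to P13, and a dotted line at the single P43 array. Dbp, Hlf and Per3 climb inside P7 to P13 and are flatter after P14, while Arntl and Nfil3 run the other way.

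The windows of 250 bases before the start of these genes were read from RefSeq on GRCm38.p6 for the motifs of the loop, on both strands. Those of 3 genes are shown because these genes rose and each holds a different motif, given in capitals. The windows of Dbp, Clock, Nr1d2 and Rora, which also rose, held none of the 3 motifs. That of Bhlhe41, which rose as well, held an E-box. Per3 (chr4:151044666-151044915, minus strand) has 2 matches to the D-box TTANGTAA, Hlf (chr11:90390918-90391167, minus strand) 1 match to the cyclic AMP response element TGACGTCA, and Tef (chr15:81802423-81802672, plus strand) 1 match to the E-box CACGTG.
Per3: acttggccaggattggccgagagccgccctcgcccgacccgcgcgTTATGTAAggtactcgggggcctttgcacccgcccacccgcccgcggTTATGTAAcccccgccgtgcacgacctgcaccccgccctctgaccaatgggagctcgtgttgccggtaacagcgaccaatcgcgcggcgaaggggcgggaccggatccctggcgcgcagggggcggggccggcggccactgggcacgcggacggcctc
Hlf: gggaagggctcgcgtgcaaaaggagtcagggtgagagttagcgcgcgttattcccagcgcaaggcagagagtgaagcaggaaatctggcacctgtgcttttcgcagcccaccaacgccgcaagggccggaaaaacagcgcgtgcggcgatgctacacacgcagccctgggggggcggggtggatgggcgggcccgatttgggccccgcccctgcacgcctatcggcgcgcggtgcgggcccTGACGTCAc
Tef: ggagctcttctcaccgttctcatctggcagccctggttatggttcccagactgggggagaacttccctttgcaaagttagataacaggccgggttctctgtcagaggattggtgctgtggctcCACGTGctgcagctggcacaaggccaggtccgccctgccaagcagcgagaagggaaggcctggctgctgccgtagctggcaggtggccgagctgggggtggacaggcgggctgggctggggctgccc

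The Per3 matches begin 205 and 158 bases before the start, that of Hlf 9 bases and that of Tef 127 bases. Of 24 windows of 15 clock genes, 5 (20.8%) held the E-box, 2 (8.33%) the D-box and 1 (4.17%) the response element. The E-box windows came from 4 genes, among them Tef with 2 windows and Per1, which did not pass. Over all 32851 windows the shares were 6.02%, 2.06% and 1.55%. The clock genes were chosen after their values were seen, and the shares were not compared by a test. A match describes the letters of the window and shows no binding.

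Markers of other cells of the retina were read beside these changes. Of 16 Muller glia markers 4 rose and 1 fell, against 4.71% and 2.00% of all genes. Glul, Clu, a secreted chaperone, and Dkk3, a secreted protein of the Dickkopf family, had no overlap, with rises of 1.58, 1.08 and 1.03. Itm2b, a widely expressed membrane protein, rose by 0.66. Most defining Muller glia genes lay under the background mark in both windows. Rlbp1, a retinoid binding protein, averaged 3.07 in P14 to P20 and 3.18 in P7 to P13, and Aqp4, a water channel, 2.37 in P14 to P20 and 2.43 in P7 to P13. Sox9, a transcription factor of glia, averaged 4.14 in P14 to P20 and 4.22 in P7 to P13, above the mark, and did not pass. The summed log2 level of the list ranged from 61.4 to 64.7 in P14 to P20 and from 58.9 to 62.7 in P7 to P13. Of 7 astrocyte markers Aldoc was the 1 that passed, against 6.71% of all genes. Gfap, an astrocyte filament, averaged 2.52 in P14 to P20 and 2.61 in P7 to P13. The astrocyte list summed to between 26.5 and 28.3 in P14 to P20 and between 22.9 and 26.7 in P7 to P13.

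Of 15 ganglion cell markers 2 rose and 1 fell, against 4.71% and 2.00% of all genes. Thy1 and Nefh, a neurofilament, rose by 1.59 and 1.19, and Stmn2, also a growth cone gene, fell. The ganglion cell transcription factor gene Pou4f1 averaged 3.48 in P14 to P20 and 3.65 in P7 to P13, and Slc17a6, the glutamate transporter of their vesicles, 2.06 in P14 to P20 and 2.14 in P7 to P13, all under the background mark. The list summed to between 56.2 and 58.3 in P14 to P20 and between 55.6 and 61.0 in P7 to P13.

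Among rod markers Gnat1 had the largest change. Gnat1 stood at 6.37, 6.10, 6.09, 7.30, 7.05, 7.07 and 6.40 on the days P14 to P20, against 3.06, 3.64, 3.18, 4.93, 4.36, 5.88 and 7.13 on the days P7 to P13. Its P13 array lay above 6 of the 7 later arrays, so the windows overlapped, and it rose by 2.03 ± 0.44 (SE, 7 arrays each; limma, adjusted p = 0.00706). Of 20 rod markers 2 rose and 0 fell, against 4.71% and 2.00% of all genes. Reep6, a membrane trafficking protein, was the other that rose, by 0.57. At an unadjusted p under 0.05 (limma) 5 of the 20 were higher and 0 lower. After median centring 4 rose, after quantile normalization 3, and in the fit of the 14 arrays alone 1. Reep6 lost its call without any 1 of 10 arrays, with an adjusted p of up to 0.116. Nrl, the transcription factor that specifies rods, averaged 2.62 in P14 to P20 and 2.68 in P7 to P13, and Rom1, an outer segment protein, 3.21 in P14 to P20 and 3.13 in P7 to P13. The rod list summed to between 74.4 and 82.8 in P14 to P20 and between 68.8 and 84.7 in P7 to P13.

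Calls in the lists that follow stand against 6.71% of all genes. Of 15 bipolar markers Prkca, a protein kinase C, rose by 1.25. The defining genes Grm6 and Trpm1 averaged 3.47 and 2.75 in P14 to P20 and 3.68 and 2.83 in P7 to P13. The bipolar list summed to between 55.4 and 57.9 in P14 to P20 and between 55.0 and 56.4 in P7 to P13. Among 14 cone markers Slc24a2 rose and Gnb3, a G protein subunit also listed for bipolar cells, fell by 0.32. Gnb3 lost its call without P7 (adjusted p = 0.0615) and under median centring, and averaged under the median level of all genes over the 14 arrays. The cone list summed to between 38.3 and 40.5 in P14 to P20 and between 38.6 and 40.6 in P7 to P13. Septin4, a cytoskeletal GTPase listed for horizontal cells, rose by 1.27, and Onecut1, which defines them, averaged 2.70 in P14 to P20 and 2.74 in P7 to P13. The horizontal cell list summed to between 33.7 and 34.8 in P14 to P20 and between 33.1 and 34.5 in P7 to P13. By limma 0 of 10 microglia, 9 lens and 2 erythrocyte markers passed the test, and also 0 of each at an unadjusted p under 0.05. Microglia markers summed to between 26.8 and 28.2 in P14 to P20 and between 27.0 and 30.7 in P7 to P13. Of 14 endothelial and mural markers Vwf fell by 0.16, below background in both windows. Vwf lost its call under median centring, quantile normalization and cyclic loess, with a limma adjusted p of 0.186, 0.312 and 0.328, and without any 1 of 11 arrays. The part of other cells in the changes of Glul, Thy1, Gnat1 and the other markers was not tested.

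Of 21 measured amacrine subtype markers 3 fell and 1 rose, against 2.00% and 4.71% of all genes. In the fit of the 14 arrays alone 7 fell and 0 rose. Tac1, Prdm8, a transcriptional regulator, and Dab1, a reelin signalling adaptor, fell, by 1.68, 0.44 and 0.47, and Th, the enzyme of dopamine synthesis, rose by 0.32. Dab1 and Th lost their calls without single arrays in both windows, with an adjusted p of up to 0.104. Lhx9, a transcription factor high in these cells, averaged 7.39 in P14 to P20 and 7.66 in P7 to P13, and did not pass. The heat shock gene Hsph1 was the 1 of 9 stress genes that passed, against 6.71% of all genes. It rose by 0.55 and lost the call without any 1 of P7, P8, P9 and P19 (limma, adjusted p up to 0.0565). By limma 0 of 15 cholesterol and 10 ribosomal protein genes passed, with 1 and 3 at an unadjusted p under 0.05.

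Other arrays of the series put the named genes in context, without a test. The single P43 array lay within the range of P14 to P20 for 9 of the 12 highest and 8 of the 12 lowest genes. Among the highest it lay below that range for Glul and Tshr and above it for Sparcl1 at 8.89. Among the lowest it lay below the range for Dpysl3, Crabp1 and Nyap2 and above it for Tac1, whose 5.89 at P43 also exceeded its P7 to P13 median of 5.29. The change of Glul was 1.58 between these windows and 0.98 between P7 to P13 and P1 to P6, and that of Thy1 1.59 and 0.99. The corresponding values were -2.45 and -1.84 for Dcx, and both changes of each gene rest on the P7 to P13 arrays.

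Starburst amacrine cells, sorted by another fluorophore from another line and carrying the batch label "B", are given beside these values. Glul averaged 2.89 ± 1.03 at P18 and 3.49 ± 0.48 at P3 in starburst cells (SD, n = 3 each), and Thy1 3.86 ± 0.20 at P18 and 3.99 ± 0.20 at P3. Tshr averaged 2.61 at P18 and 3.12 at P3, Slc24a2 2.98 and 2.87, and Olfm3 2.67 and 2.38. Gnat1 averaged 6.14 ± 0.22 at P18 and 3.15 ± 0.16 at P3 in starburst cells (SD, n = 3 each). Dbp averaged 6.68 ± 0.18 at P18 and 4.60 ± 0.05 at P3, and Per3 6.09 ± 0.30 at P18 and 3.96 ± 0.06 at P3 (SD, n = 3 each). Cell type, line and batch cannot be told apart here.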

How the data were processed

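RNA of sorted Arc amacrine cells was measured on arrays labelled with biotin. The authors processed the arrays with RMA in R 2.11.1, and genome build mm8 is named, per the submitters' processing notes. The deposited values are log2 expression by the authors. The base is not stated there and was taken from the convention of RMA and the range of the values. Whether an Arc value is 1 sample or a mean of several is not settled, since the series design speaks of triplicates while each day used here has 1 array.

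Of 15170 transcript clusters, 13720 had 1 gene symbol, 869 several and 581 none. For 102 genes with more than 1 cluster the one with the highest mean was used, which left 13617 genes. No low values were removed.

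Windows were compared with limma 3.58.1 in R 4.3.3 (eBayes with trend, two-sided, Benjamini-Hochberg over all 13617 genes at 0.05), in a fit of 21 Arc arrays of P1 to P20 in 3 windows. The step at P14 and the 3-day comparison used the 14 arrays. The fits were run on simulated data of independent noise, without a change with age inside a window. That run cannot show how the fits treat such a change. Named genes were Glul, Thy1, Arc, the 12 highest and the 12 lowest changes past the test above the median level with a symbol that is no placeholder, and members of the lists. The members and lists were chosen with earlier results of these data known, and the circadian list and the alternatives with other days after the values were seen. The promoter windows come from RefSeq on GRCm38.p6.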

Additional observations from a re-analysis of the deposited data

Results flagged for a closer look

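Stmn2, the growth cone regulator of microtubules, had 1 array far from the others of its window. Among the arrays of P7 to P13 its lowest value was 5.25, at P13, and the next was 6.04. That gap was 0.583 of the range of the window, above the limit that Dixon's test sets for 7 arrays. It was the 1 such array in 50 groups checked, 25 genes in both windows, where chance alone singles out an array in about 1 in 20 groups. The P13 array is the last day before the boundary, and Stmn2 stood at 5.05 at P14.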

How the results depend on the processing

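The count of 914 genes was 580 to 1162 when single arrays were left out, lowest without P7 and highest without P13. It was 1511 with array weights (880 higher, 631 lower), 1309 in the 14 arrays alone (787 higher, 522 lower), 980 with median centring (858 higher, 122 lower) and 841 with quantile normalization (524 higher, 317 lower). With days chosen after seeing the data it was 0 for P14 to P16 alone (1544 unadjusted), 0 for P14 to P16 against P10 to P13 (852 unadjusted) and 255 without P7 and P8; the 14 arrays alone and these choices of days also differ in the number of arrays, and the cause was otherwise not tested. With the boundary 1 day earlier the count was 1177 and 1 day later 615. The counts of 0 for the step at P14, for P14 to P16 against P11 to P13 and for the difference of the changes were 0 by limma under every alternative run. For the step 422 to 824 genes had an unadjusted p under 0.05 (limma) where all genes were tested. Among genes above the median level alone there were 307. Of 3641 pairs of a followed gene and an alternative, 761 lost the call, and 0 called genes changed sign. Arc, which did not pass, was lower in P14 to P20 by quantile normalization (-0.047), cyclic loess (-0.010) and a boundary 1 day later (-0.003). No paired analysis was possible because the Arc days share no replicate numbers. The number of arrays, 1 per day, limits what a step at P14 can show, with a median SE of 0.173.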
